A study of Mus musculus with 288 samples.

Results

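The genes described here are the chemokines Ccl2, Ccl6, Ccl24, Cxcl1, Cxcl9, Cxcl10, Cxcl13 and Cxcl16 and the inflammatory cytokines Il1b and Tnf, 10 of the 21869 genes whose reads were counted in mouse liver. They were chosen by name with earlier results of these data known, so the share of them called is not an independent test. Each symbol matched 1 gene of the count tables. The livers came from wild-type male C57BL/6J mice, housed singly with a running wheel, at 19 and 6 months of age. At each age there were 5 groups under caloric restriction (CR), which received a reduced ration, and 1 group fed ad libitum (AL). CR-spread mice received their pellets evenly over 24 h, CR-day-12h and CR-night-12h mice within 12 h of the day or of the night, and CR-day-2h and CR-night-2h mice at the start of the day or of the night, as a meal eaten within 2 h. Each of the 12 groups held 24 mice, 2 of them (replicates A and B) at each of 12 times, every 4 h between hours 0 and 44. A mouse gave a single liver, so no value below follows an animal over time. The study and the headings of its tables state constant darkness during the sampling, whereas the sample labels give a light and dark cycle.

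Chemokines are small secreted proteins that draw leukocytes towards their source through receptors on those cells. In the liver they are made by resident macrophages (Kupffer cells), by endothelial and stellate cells and by stressed hepatocytes. Interleukin 1 beta and tumour necrosis factor, the products of Il1b and Tnf, come mainly from macrophages and induce many chemokine genes through NF-kB, while interferon gamma induces Cxcl9 and Cxcl10. Low-grade rises of such transcripts are a known feature of aging tissue.

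On GRCm38, with the GENCODE M21 annotation that holds the same versioned identifiers, Cxcl1 (chr5:90891241-90893115), Cxcl9 (chr5:92321347-92328079) and Cxcl10 (chr5:92346638-92348889) are on chromosome 5, as are Cxcl13 (chr5:95956951-95961068) and, further away, Ccl24 (chr5:135569937-135573049). Ccl2 (chr11:82035571-82037453), Ccl6 (chr11:83587882-83593087) and Cxcl16 (chr11:70453983-70459984) are on chromosome 11. Il1b is at chr2:129364570-129371139 and Tnf at chr17:35199381-35202007. Promoters of 7 of the 10 genes were found in RefSeq (GRCm38.p6), as windows of 300 bases that begin 250 bases before the gene's start. A kappaB motif, the letters that NF-kB proteins bind, matched on either strand in 2 of these 7 windows, Cxcl1 and Cxcl10, and in 8.46% of the 32851 promoters of the table. The core of the interferon-stimulated response element (TTTC, then NN for any pair of bases, then TTTC) matched in 1 of the 7, Cxcl10, and in 3.44% of all promoters. The clock E-box CACGTG matched in 0 of the 7 and in 7.15% of all promoters. These matches are descriptions of letters, and binding was not measured. The stretches from base -220 to base -51 before the start are shown for the interferon-inducible neighbours Cxcl10 and Cxcl9, which varied together between livers with a correlation of 0.61, and for Cxcl1, whose correlations with them were 0.23 and 0.18. Capitals mark matches to the kappaB motif and to the response element core, which in Cxcl10 is the most upstream match, on the opposite strand. The matches of Cxcl1 overlap each other, as do those of Cxcl10 nearest to the gene.
Cxcl10 (chr5:92348940-92349109, minus strand): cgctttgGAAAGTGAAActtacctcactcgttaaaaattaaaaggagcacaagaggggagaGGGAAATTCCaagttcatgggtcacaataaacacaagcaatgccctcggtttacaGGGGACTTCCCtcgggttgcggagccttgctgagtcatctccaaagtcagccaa
Cxcl9 (chr5:92328130-92328299, minus strand): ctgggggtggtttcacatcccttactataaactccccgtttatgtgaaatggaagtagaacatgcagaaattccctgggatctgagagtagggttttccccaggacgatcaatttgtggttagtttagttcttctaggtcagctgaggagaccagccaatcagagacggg
Cxcl1 (chr5:90891025-90891194, plus strand): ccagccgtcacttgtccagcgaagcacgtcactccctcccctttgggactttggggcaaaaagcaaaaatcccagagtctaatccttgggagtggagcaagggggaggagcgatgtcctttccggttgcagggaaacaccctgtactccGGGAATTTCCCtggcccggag

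The libraries held 2.80e+06 to 1.87e+07 counted reads. Median totals were 9.38e+06 in AL at 19 months and 9.42e+06 in AL at 6 months, and 7.34e+06 to 8.55e+06 in the CR groups at 19 months and 4.87e+06 to 6.15e+06 in those at 6 months, so old CR livers were sequenced more deeply than young ones. No dates are given, so age and a batch common to the livers of an age cannot be told apart. Levels are in CPM (reads of a gene relative to the TMM-scaled total of its library), and none is corrected for gene length, so they are compared between groups and not between genes. In whole liver, a lower level from fewer cells of a type and from less RNA per cell cannot be told apart.

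At this depth the transcripts were counted in 2699 of 2880 gene and liver pairs. Ccl6, Cxcl1, Cxcl9 and Cxcl16 had reads in all 288 livers. Cxcl13 was detected in 284 livers, Cxcl10 and Il1b in 283 each, Ccl24 in 274, Ccl2 in 230 and Tnf in 193. Tnf had a median of 1 read per library and Ccl2 of 2 reads, so single values of these genes carry a large counting error. With every library thinned to the smallest total, 57.8% of livers would be expected to show Ccl2 and 42.3% Tnf. In AL, Ccl2 was detected in 24 of 24 livers at 19 months and 20 of 24 at 6 months, with 92.8% and 52% expected at equal depth. Tnf was detected in 23 of 24 AL livers at 19 months and 17 of 24 at 6 months, with 68.2% and 43.1% expected at equal depth. All 10 genes passed the filter of a mean of at least 1 read per library.

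**Figure D1:**
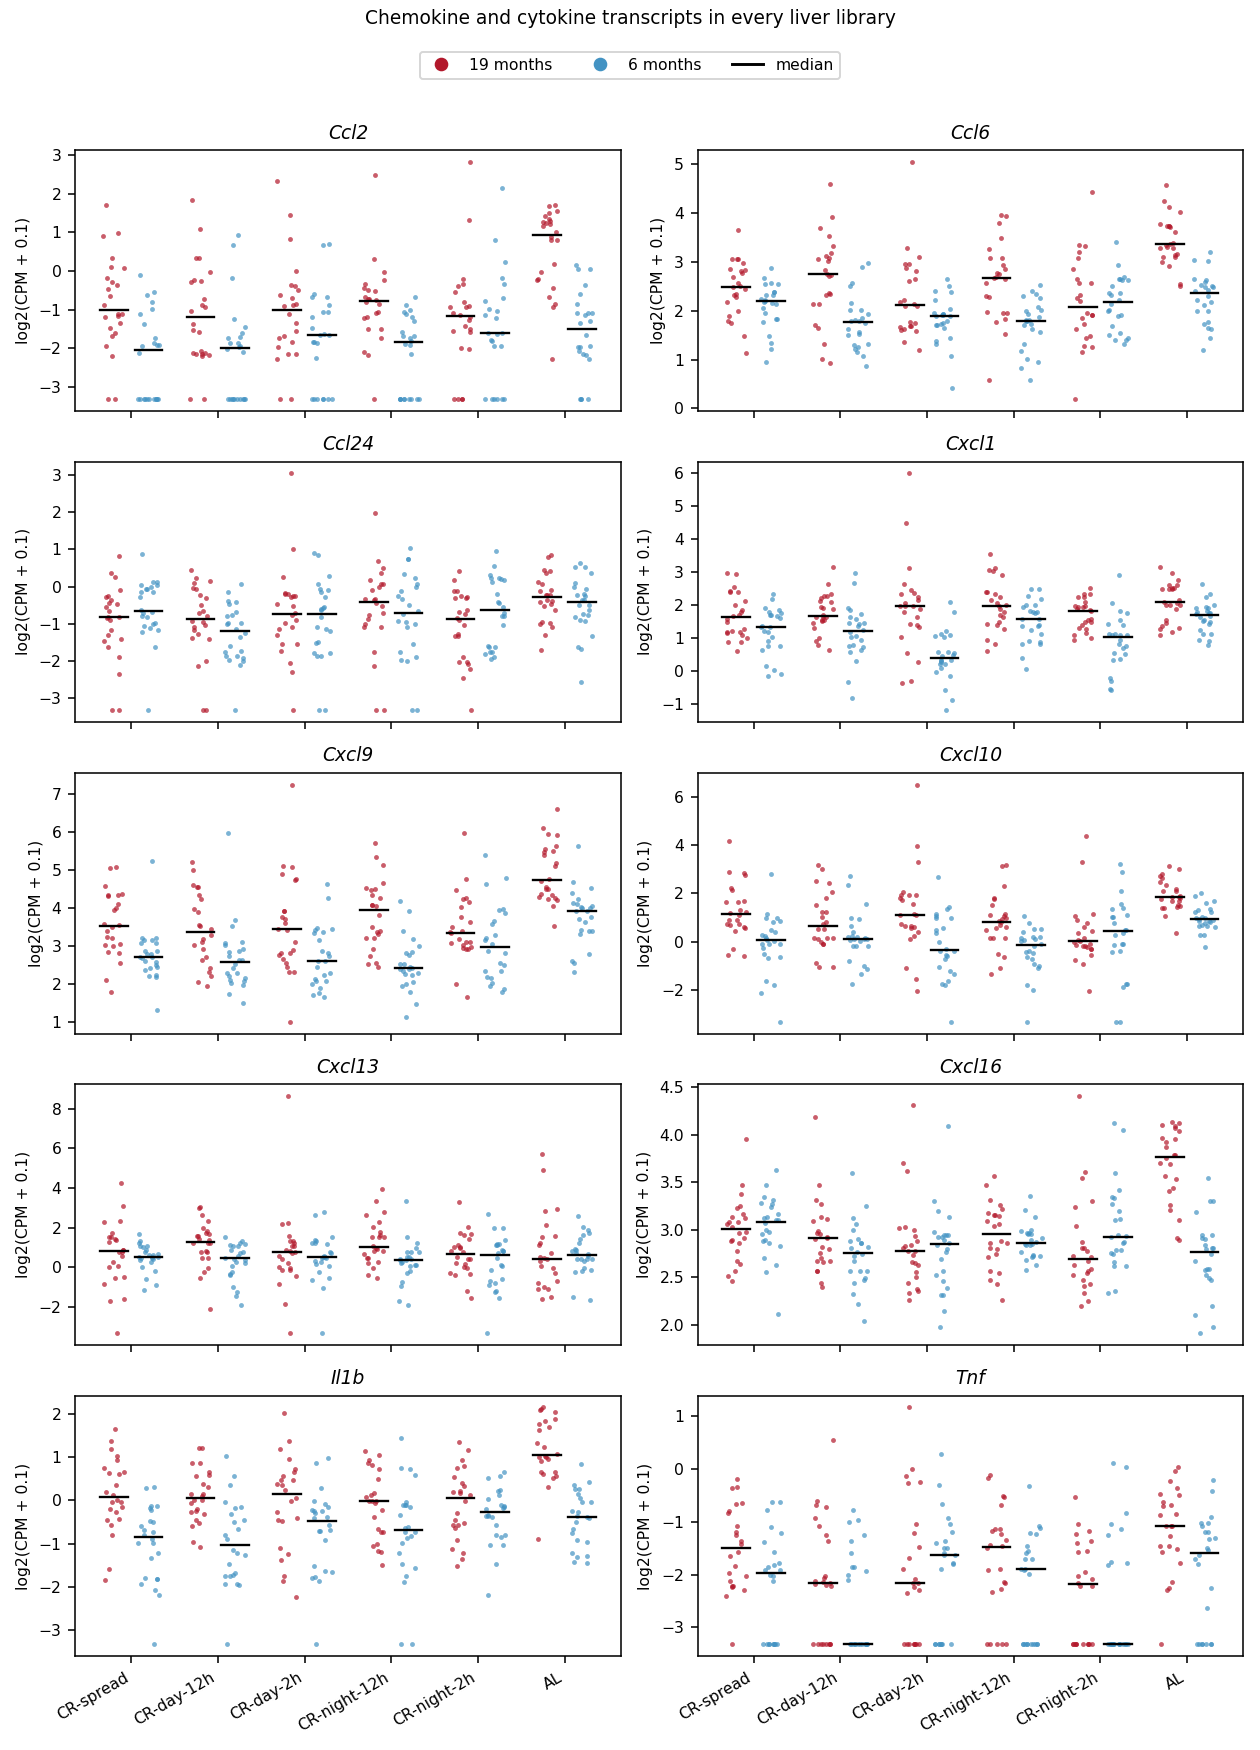
Level of each of the 10 transcripts in all 288 livers, as log2(CPM + 0.1), by feeding condition and age (red, 19 months, and blue, 6 months). Each point is 1 liver and the black bars are medians of 24 livers. The old AL livers stand highest for Ccl2, Ccl6, Cxcl16 and Il1b, and single old CR-day-2h livers lie far above their group for Cxcl13, Cxcl10, Cxcl9 and Cxcl1.

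The first question was how these genes changed with age under AL feeding. Of the 10 genes, 8 rose in AL livers at 19 months against 6 months, with a median log2 fold change over the 10 genes of 1.13 beside 0.01 over all genes tested. Calls needed an adjusted p under 0.05 (edgeR quasi-likelihood test, Benjamini-Hochberg over 13843 genes) and a fold change of at least 1.5, and 13.2% of all genes tested were called higher in this comparison. Ccl2, Il1b, Ccl6 and Cxcl16 were the genes whose rise was called under each of 23 alternatives of processing. Without old AL livers 28B and 20B (hours 28 and 20, replicate B), which set the level of Cxcl13, 6 of the 10 genes were called.

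Ccl2 encodes the main attractant of inflammatory monocytes, which carry its receptor Ccr2. Its lowest, median and highest levels were 0.105, 1.82 and 3.19 CPM in AL livers at 19 months, against 0, 0.253 and 1.02 CPM at 6 months. The ages overlapped, but 16 of 24 old livers lay above the highest young one. The log2 fold change was 2.32 ± 0.38 (SE), a 4.98-fold rise (adjusted p = 3.04e-08). Ccl6, a chemokine of macrophages and other myeloid cells in rodents, had levels of 5.56, 10.1 and 23.6 CPM (lowest, median, highest) in old AL livers and 2.20, 5.00 and 9.05 CPM in young ones. All 24 old livers were above the young median and 16 above the young maximum. Ccl6 rose by 1.21 ± 0.18 (log2, SE, adjusted p = 3.68e-09). Ccl24, which attracts eosinophils, was not called. Its levels were 0.210, 0.716 and 1.71 CPM in old AL livers and 0.0689, 0.644 and 1.45 CPM in young ones, and the ages lay on top of each other, and the change was 0.18 ± 0.27 (log2, adjusted p = 0.6).

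Among the CXC chemokines, Cxcl16 changed with the least scatter. It encodes a membrane-bound chemokine, the ligand of Cxcr6 on liver T and natural killer T cells. Its lowest, median and highest levels were 7.30, 13.5 and 17.5 CPM in AL livers at 19 months, against 3.66, 6.72 and 11.5 CPM at 6 months. Every old liver was above the young median and 16 of 24 were above the young maximum. Cxcl16 rose by 0.98 ± 0.11 on the log2 scale (adjusted p = 2.57e-14). Cxcl9 and Cxcl10, ligands of Cxcr3 on activated T cells, moved in the same direction. Cxcl9 had 11.5, 26.8 and 97.9 CPM in old AL livers and 4.89, 15.1 and 49.9 CPM in young ones, a log2 fold change of 1.22 ± 0.26 (adjusted p = 2.85e-05). Cxcl10 had 1.19, 3.53 and 8.64 CPM in old AL livers and 0.758, 1.79 and 3.93 CPM in young ones, a log2 fold change of 1.06 ± 0.34 (adjusted p = 0.00624). For each of them 23 of 24 old livers exceeded the young median, while only 5 livers for Cxcl9 and 10 for Cxcl10 exceeded the young maximum. Neither rise was called in replicate A livers alone, and that of Cxcl10 was also lost in hours 0 to 20 and in hours 24 to 44 alone. The lowest log2 fold changes over the alternatives were 0.77 for Cxcl9 and 0.85 for Cxcl10. Cxcl1, a neutrophil attractant that acts through Cxcr2, passed the p threshold but not the fold. It had 2.05, 4.17 and 8.76 CPM in old AL livers and 1.62, 3.16 and 6.18 CPM in young ones, and changed by 0.51 ± 0.22 (log2, adjusted p = 0.0404), while 7 of 24 old livers lay below the young median.

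Cxcl13, the B-cell attractant of lymphoid follicles, was called higher with a log2 fold change of 1.40 ± 0.43 (adjusted p = 0.00423), but this rested on 2 livers. Its levels were 0.228, 1.24 and 52.1 CPM in AL livers at 19 months, against 0.222, 1.44 and 5.93 CPM at 6 months. The median was thus lower in the old group, 14 of 24 old livers lay below the young median, and 4 lay above the young maximum. The top values were 52.1 CPM in the old AL liver of hour 28, replicate B (28B), and 29.9 CPM in that of hour 20, replicate B (20B). Without these 2 livers the log2 fold change was -0.08 (adjusted p = 0.893). The 9 highest old livers were all of replicate B, with old and young medians of 2.81 and 1.75 CPM in replicate B and of 0.736 and 1.22 CPM in replicate A. In liver 28B, Ccl6 was also the highest of its group at 23.6 CPM. The summed level of 7 Kupffer cell markers was 448 CPM in 28B and 285 CPM in 20B, against a median of 168 CPM in old AL livers, and its part in the Cxcl13 levels was not tested.

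Both cytokines were called higher with age in AL, Il1b under every alternative and Tnf under 14 of 22. Il1b had 0.440, 1.97 and 4.32 CPM (lowest, median, highest) in AL livers at 19 months, against 0.267, 0.670 and 1.70 CPM at 6 months. Of the old livers 17 of 24 were above every young one, the largest such number among the 10 genes. The log2 fold change of Il1b was 1.68 ± 0.22 (adjusted p = 1.51e-11), a 3.20-fold rise. Tnf had 0, 0.374 and 0.927 CPM in old AL livers and 0, 0.234 and 0.766 CPM in young ones, and only 2 old livers were above the young maximum. Tnf was called at 0.80 ± 0.34 (log2, adjusted p = 0.0416), close to the threshold, and the call was lost without livers 28B and 20B (0.76, adjusted p = 0.0631).

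**Figure D2:**
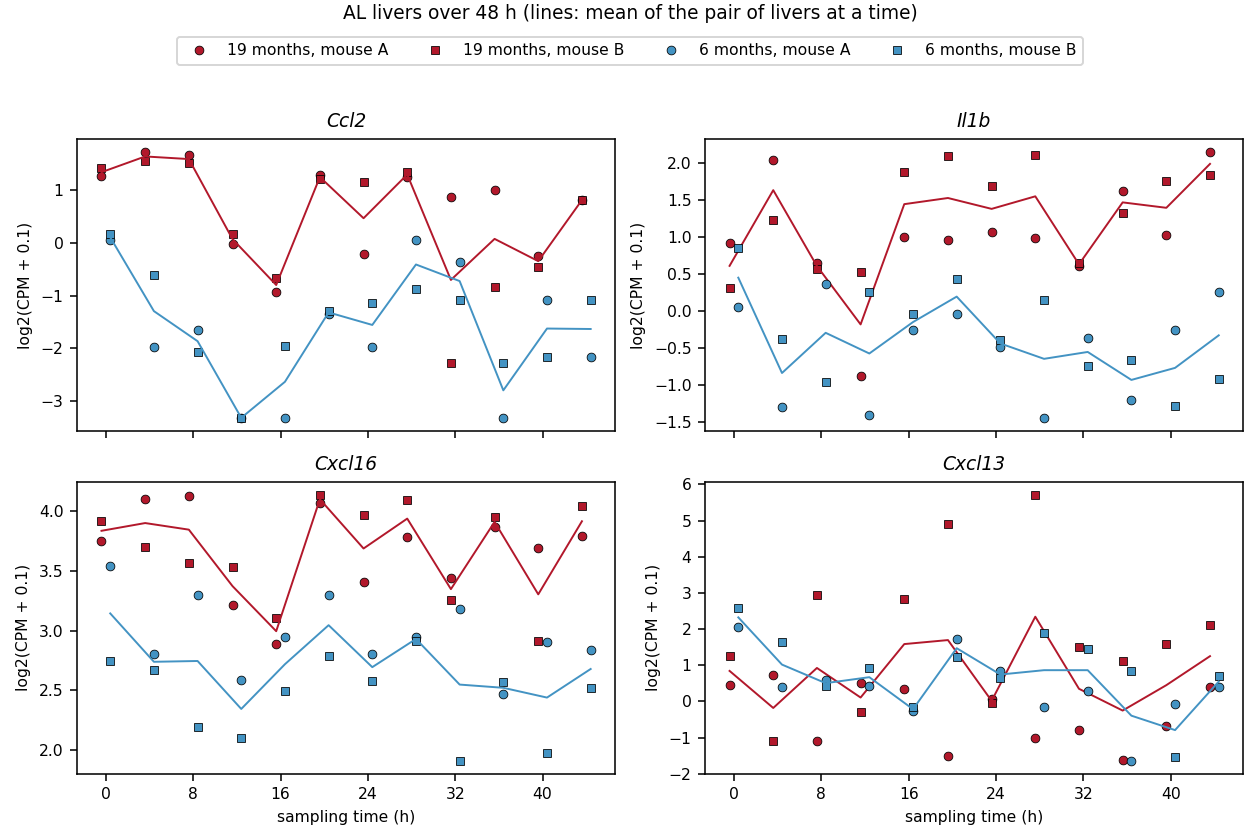
Level of Ccl2, Il1b, Cxcl16 and Cxcl13 in every AL liver, as log2(CPM + 0.1), against the sampling time in hours. Red marks are livers of 19 months and blue marks of 6 months (circles replicate A, squares replicate B), and the lines join the means of the 2 livers of a time point. Old livers stand above young ones at most times for Ccl2, Il1b and Cxcl16, whereas for Cxcl13 the high old livers are single squares, up to 52.1 CPM at hour 28.

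The same age comparison was made within each CR condition, and the age effects of the CR conditions were not tested against one another. In CR-spread livers 4 of the 10 genes rose at 19 months against 6 months (6.61% of all genes tested were called higher), in CR-day-12h livers 3 (6.31%), in CR-day-2h livers 7 (6.88%), in CR-night-12h livers 5 (5.22%) and in CR-night-2h livers 1 (2.69%). No member was called lower at 19 months under any feeding condition by edgeR, and 0 reached an unadjusted p under 0.05 in that direction or were called lower by DESeq2 or limma. By limma the 5 counts were 4, 4, 3, 5 and 1 in the same order, and by DESeq2 5, 4, 6, 6 and 1. The count over the 50 pairs of gene and CR condition was 20, and it was 16 in replicate A livers alone and 5 in replicate B livers alone. The 1 gene called in CR-night-2h was Cxcl1, with 1.83, 3.47 and 5.70 CPM at 19 months and 0.579, 1.94 and 7.48 CPM at 6 months (log2 fold change 0.66 ± 0.24, adjusted p = 0.0286).

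Ccl2 rose with age in 4 of the 5 CR conditions, by 1.85 ± 0.48 in CR-spread, 1.21 ± 0.46 in CR-day-12h, 1.09 ± 0.46 in CR-day-2h and 1.87 ± 0.51 in CR-night-12h (log2, SE). Median levels of Ccl2 in these conditions were 0.337 to 0.484 CPM at 19 months and 0.143 to 0.217 CPM at 6 months, so the medians of old CR livers stayed below the 1.82 CPM of old AL livers. In CR-night-2h the medians were 0.345 and 0.228 CPM, and the change of 0.56 ± 0.41 was not called (adjusted p = 0.327). One old CR-night-2h liver, 28B, had 6.97 CPM, the highest Ccl2 level of all 288. The rises in CR-day-12h and CR-day-2h were close to the threshold (adjusted p = 0.037 and 0.0432).

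Ccl6 rose in CR-day-12h by 1.06 ± 0.20, in CR-day-2h by 0.72 ± 0.20 and in CR-night-12h by 1.05 ± 0.20. In CR-spread (0.42 ± 0.20) and CR-night-2h (0.27 ± 0.20) it was not called. The call in CR-day-2h was lost without the liver of hour 40, replicate A (40A), with a change of 0.43 (adjusted p = 0.0642). Il1b rose in CR-spread by 1.26 ± 0.26, in CR-day-12h by 0.97 ± 0.26 and in CR-day-2h by 0.80 ± 0.27, and had changes of 0.57 ± 0.26 in CR-night-12h and 0.40 ± 0.25 in CR-night-2h that were not called. Old CR livers had Il1b medians of 0.891 to 1.01 CPM, against 1.97 CPM in old AL livers and 0.393 to 0.731 CPM in young CR livers.

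Cxcl9 rose in CR-spread by 0.85 ± 0.28, in CR-day-2h by 1.34 ± 0.28 and in CR-night-12h by 1.45 ± 0.29, the last with all 24 old livers above the young median. Cxcl10 rose in the same 3 conditions, by 1.47 ± 0.39, 2.46 ± 0.39 and 1.53 ± 0.43. Cxcl1 rose in CR-day-2h by 2.21 ± 0.25 and in CR-night-12h by 0.60 ± 0.23, and Cxcl13 in CR-day-2h by 3.26 ± 0.46. Ccl24 and Tnf were called with age in 0 of the 5 CR conditions (0 also at an unadjusted p under 0.05 by edgeR, and 0 by DESeq2 and by limma), with log2 fold changes of -0.46 to 0.60 for Ccl24 and -0.10 to 0.85 for Tnf.

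Cxcl16 was called with age in AL and in 0 of the 5 CR conditions (0 also at an unadjusted p under 0.05 by edgeR, and 0 by DESeq2 and by limma). Its log2 fold changes were -0.02 in CR-spread, 0.22 in CR-day-12h, 0.08 in CR-day-2h, 0.09 in CR-night-12h and -0.18 in CR-night-2h (SE 0.12 each), and the highest upper bound of their 95% intervals was 0.45. Medians were 6.38 to 7.92 CPM in old CR livers and 6.64 to 8.37 CPM in young CR livers. The difference of the age effects was tested directly as the interaction of age with feeding, the change in a CR condition minus that in AL. For Cxcl16 it was -1.0 ± 0.16, -0.77 ± 0.16, -0.91 ± 0.17, -0.89 ± 0.17 and -1.16 ± 0.16 in the same order, called in all 5 (largest adjusted p = 0.000135). In replicate A livers alone it was not called in CR-day-12h, CR-day-2h or CR-night-12h, and in hours 0 to 20 alone not in CR-day-12h. Over the alternatives it ranged from -1.47 to -0.42 in CR-day-2h. The mean Cxcl16 level of young AL livers was 7.89 CPM in replicate A and 5.52 CPM in replicate B. Over all genes tested, 11.5%, 8.16%, 12%, 11.5% and 17.2% had an interaction called in either direction.

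For the other genes the interaction was called in fewer conditions. Il1b rose less than in AL in CR-day-2h (-0.88 ± 0.35, lost without AL livers 28B and 20B at -0.78 and adjusted p = 0.0857), CR-night-12h (-1.11 ± 0.35) and CR-night-2h (-1.28 ± 0.34). The CR-day-2h call was also lost in either replicate letter alone, in hours 0 to 20 alone and with thinned counts. Cosine and sine terms, the groups of the comparison alone and no count filter lost it too. In hours 0 to 20 alone the other 2 calls were lost. That in CR-night-12h was also lost in replicate A alone, and that in CR-night-2h in replicate B alone and with thinned counts. Ccl6 rose less in CR-spread (-0.78 ± 0.27) and CR-night-2h (-0.94 ± 0.27), and Ccl2 in CR-night-2h (-1.76 ± 0.57, adjusted p = 0.00914). The Ccl2 interaction was -3.22 (adjusted p = 0.00157) in replicate A livers alone and -0.65 (adjusted p = 0.615) in replicate B livers alone, and it was not called in hours 24 to 44 (-0.76) or with counts thinned to the smallest total (-1.42). It was -1.23 (adjusted p = 0.0975) without the young CR-night-2h liver 08A, which had 4.33 CPM of Ccl2 beside a next highest 1.66 CPM, and -2.53 (adjusted p = 0.000101) without the old liver 28B. In CR-night-2h, where Cxcl16, Ccl2, Ccl6 and Il1b all had an interaction called, that of Cxcl9 was -0.85 ± 0.38 (adjusted p = 0.0639). Interactions above 0, a larger rise than in AL, were called in CR-day-2h alone, for Cxcl1 (1.69 ± 0.33), Cxcl10 (1.40 ± 0.52) and Cxcl13 (1.86 ± 0.63).

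**Figure D3:**
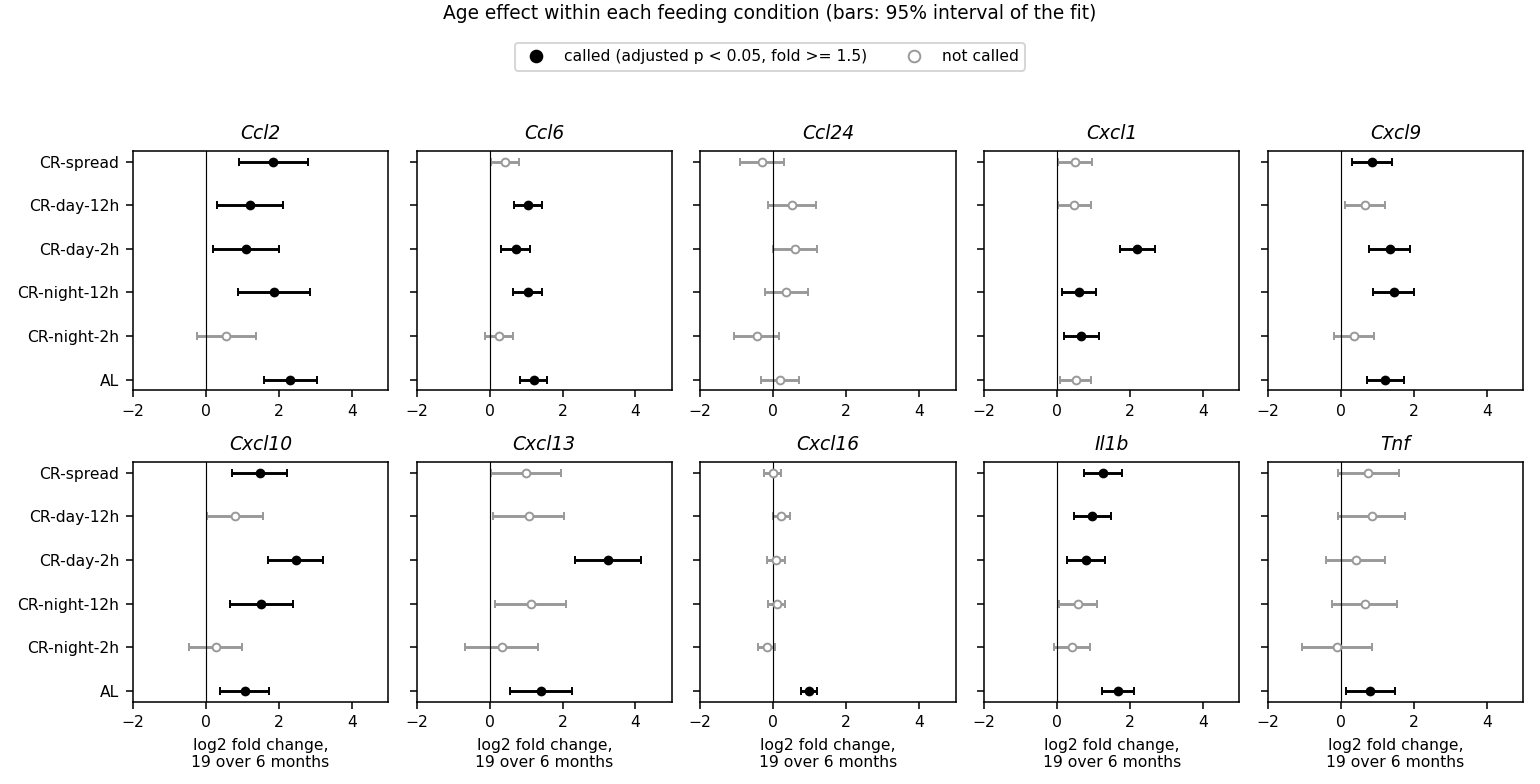
Log2 fold change with age (19 over 6 months) of each gene within each feeding condition, with the 95% interval of the fit. Filled black points were called and open grey points were not. Cxcl16 lies near 0 in the 5 CR conditions and at 0.98 in AL, and CR-day-2h reaches 3.26 for Cxcl13.

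Several of the CR-day-2h values were set by single old livers. In liver 40A, Cxcl13 stood at 397 CPM (2401 reads), 87.4 times the next liver of the group at 4.53 CPM. The same liver had the group's highest Cxcl9 (153 CPM, next 34.3), Ccl6 (32.7 CPM, next 9.58), Ccl24 (8.09 CPM, next 1.90), Cxcl16 (19.8 CPM, next 12.9), Ccl2 (4.95 CPM, next 2.62) and Tnf (2.15 CPM, next 0.900). The liver of hour 12, replicate A (12A) had 90.0 CPM of Cxcl10, against 15.4 CPM in the next. The liver of hour 0, replicate B (00B) had 63.5 CPM of Cxcl1, against 22.4 CPM in the next, and the group's highest Il1b at 3.91 CPM. The livers were not raised in all the same genes. Liver 12A had a Cxcl13 level of 0.819 CPM and 00B a Cxcl10 level of 2.02 CPM, both near their group medians of 1.58 and 2.03 CPM or below. Their rises overlapped in part, as 40A was the next highest liver for Cxcl10 (15.4 CPM) and Il1b (2.48 CPM). Liver 12A was next highest for Ccl2 (2.62 CPM) and Tnf (0.900 CPM), and 00B for Ccl6 (9.58 CPM). Summed Kupffer cell markers were 542 CPM in 40A, 81.7 CPM in 12A and 160 CPM in 00B, beside a group median of 75.8 CPM. Summed macrophage markers were 817, 295 and 156 CPM in the same livers, beside a median of 119 CPM. Their part in the chemokine levels was not tested.

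Without liver 40A the age effect of Cxcl13 in CR-day-2h was -0.16 (adjusted p = 0.769) and its interaction turned to -1.57 (adjusted p = 0.0131). Without 12A the rise of Cxcl10 with age in CR-day-2h was still called at 1.26 (adjusted p = 0.00289), but its interaction was 0.19 (adjusted p = 0.797). Cxcl1 kept both calls without 00B, with an age effect of 1.57 (adjusted p = 1.48e-09) and an interaction of 1.05 (adjusted p = 0.0034). Its levels in CR-day-2h were 0.683, 3.82 and 63.5 CPM (lowest, median, highest) at 19 months and 0.340, 1.22 and 4.17 CPM at 6 months, and 21 of 24 old livers were above the young median. The Cxcl1 median of young CR-day-2h livers was the lowest of the 12 groups. Without 40A the age effect of Cxcl9 was smaller but still called (0.83, adjusted p = 0.00786), and the interactions of Ccl2 (-1.60, adjusted p = 0.0373) and Ccl6 (-0.78, adjusted p = 0.0147) passed the threshold. The rise of Ccl2 with age in CR-day-2h was lost without 40A (0.71, adjusted p = 0.214) and without 12A (0.87, adjusted p = 0.132), and without all 3 livers Ccl6 and Il1b were not called either (0.32 and 0.49). These exclusions were chosen after the values were seen.

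**Figure D4:**
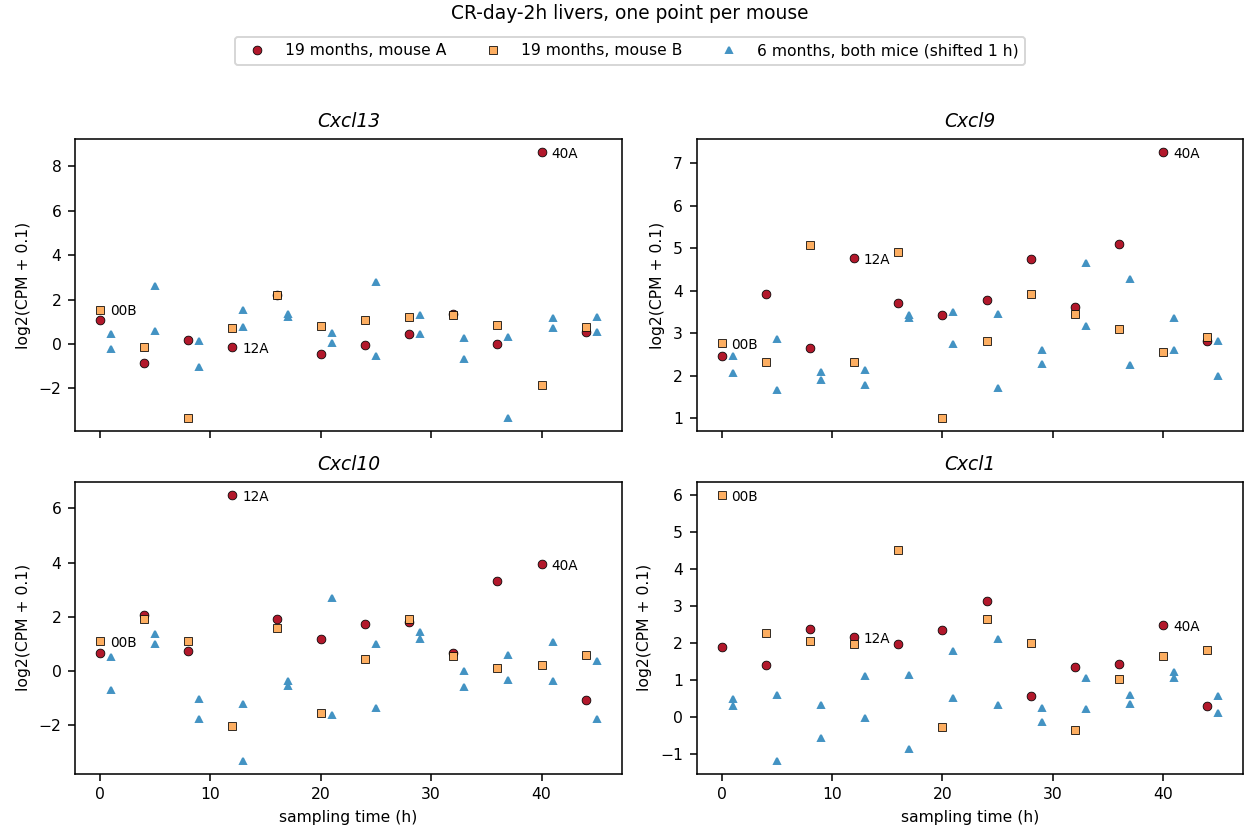
Level of Cxcl13, Cxcl9, Cxcl10 and Cxcl1 in every CR-day-2h liver, as log2(CPM + 0.1), against the sampling time in hours. Circles (replicate A) and squares (replicate B) are livers of 19 months and triangles are livers of 6 months, shifted by 1 h. Liver 40A is highest for Cxcl13 (397 CPM) and Cxcl9, liver 12A for Cxcl10 (90.0 CPM) and liver 00B for Cxcl1 (63.5 CPM).

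The second question was how CR and AL livers differed at a given age. The 5 comparisons at each age share the AL livers, so they are not independent of each other. At 19 months, Ccl2, Ccl6, Cxcl9, Cxcl16 and Il1b were lower than in AL in each of the 5 CR conditions. CR-night-2h had the most members called lower, 9 of 10 (8.97% of all genes tested), CR-night-12h had 6 (10.4%), and CR-day-12h (7.89%), CR-day-2h (6.41%) and CR-spread (8.94%) had these 5. By limma the counts of genes called lower were 7 in CR-night-2h, 6 in CR-night-12h and CR-day-12h, and 5 in CR-day-2h and CR-spread. By DESeq2 they were 9 in CR-night-2h and 6 in each of the others. In CR-day-2h, Cxcl1 and Cxcl13 were called higher than in AL (3.6% of all genes).

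Ccl2 had log2 fold changes against AL of -1.25 ± 0.36 in CR-spread, -1.40 ± 0.36 in CR-day-12h, -1.26 ± 0.36 in CR-day-2h, -1.29 ± 0.36 in CR-night-12h and -1.16 ± 0.35 in CR-night-2h at 19 months. The 5 values lie within 1 SE of each other. For Il1b they were -0.99, -1.12, -1.09, -1.25 and -1.22 in the same order (SE 0.22 each). Cxcl16 was lower by -0.69, -0.74, -0.80, -0.75 and -0.81 (SE 0.11 each), again with little spread between the CR conditions. Its levels in CR-night-2h at 19 months were 4.49, 6.38 and 21.1 CPM (lowest, median, highest), against 7.30, 13.5 and 17.5 CPM in AL, so the median old CR-night-2h liver lay below the lowest old AL liver. Ccl6 differed by -0.96, -0.61, -0.93, -0.71 and -1.03 (SE 0.18 each). Cxcl9 had changes of -1.36, -1.40, -0.90, -1.04 and -1.35 (SE 0.26 each).

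CR-night-2h also had lower Cxcl10 (-0.84 ± 0.34, adjusted p = 0.0396), Ccl24 (-0.71 ± 0.29, adjusted p = 0.0361), Tnf (-1.33 ± 0.38, adjusted p = 0.00254) and Cxcl13 (-1.32 ± 0.44, adjusted p = 0.0107) than AL at 19 months. Tnf was detected in 14 of 24 old CR-night-2h livers, against 23 of 24 old AL livers, and in 23 of 24 of CR-spread. The Cxcl13 difference again came from AL livers 28B and 20B, since the medians were 1.48 CPM in CR-night-2h and 1.24 CPM in AL and the log2 fold change without the 2 livers was 0.17 (adjusted p = 0.799). Cxcl10 was lower in CR-night-12h as well (-0.83 ± 0.35, adjusted p = 0.0448). Old CR-night-2h livers were not uniform, as liver 16B had 62.8 CPM of Cxcl9 and 20.4 CPM of Cxcl10, the highest of that group, beside medians of 10.1 and 0.902 CPM. Ccl2 and Cxcl16 were highest in liver 28B of the group (6.97 and 21.1 CPM). Without liver 28B the Ccl2 change against AL was -1.93, beside -1.16 with it. Recruited macrophage markers summed to 792 CPM in liver 28B and 117 CPM in 16B, and Kupffer cell markers to 38.2 CPM in 28B and 265 CPM in 16B, beside group medians of 70.1 and 73.9 CPM, and their part in these levels was not tested.

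The CR-day-2h livers at 19 months again depended on single animals. Cxcl13 was 1.87 ± 0.41 higher than in AL on the log2 scale with liver 40A and -1.57 (adjusted p = 0.000196) without it. Cxcl1 was 0.61 ± 0.21 higher with liver 00B and -0.03 (adjusted p = 0.931) without it. Ccl2, Ccl6, Cxcl9, Cxcl16 and Il1b stayed lower than in AL without any of livers 40A, 12A and 00B, and without all 3. Without 40A, Cxcl9 was -1.40 (adjusted p = 2.02e-06) and Ccl2 -1.64 (adjusted p = 0.000142).

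At 6 months 7 pairs of gene and CR condition were called between CR and AL, all lower. Cxcl9 was lower in CR-night-12h (-1.27 ± 0.29), CR-day-2h (-1.01 ± 0.28), CR-spread (-0.99 ± 0.28) and CR-day-12h (-0.85 ± 0.28). These 4 calls were found in replicate A livers alone (-1.54, -1.42, -1.54 and -1.76 in the same order) and in none of the 4 conditions in replicate B livers alone (-0.95, -0.54, -0.41 and -0.053, smallest adjusted p = 0.081). The mean Cxcl9 level of young AL livers was 19.4 CPM in replicate A and 11.7 CPM in replicate B. Without every liver that stood apart, changes in both letters together were -1.25 in CR-spread and -1.32 in CR-day-12h. In CR-night-2h Cxcl9 was -0.50 ± 0.27 and not called, and there 0 of the 10 genes were called by edgeR or DESeq2, 2 by limma, and 2 had an unadjusted p under 0.05. Young livers had Cxcl9 medians of 5.25 to 7.73 CPM in the CR conditions, against 15.1 CPM in AL. The other genes called lower at 6 months were Cxcl1 in CR-day-2h (-1.08 ± 0.26), Ccl24 in CR-day-12h (-0.86 ± 0.32) and Cxcl10 in CR-night-12h (-1.29 ± 0.43). Of all genes tested, 4.34% were lower in CR-spread, 4.07% in CR-day-12h, 4.11% in CR-day-2h, 3.73% in CR-night-12h and 2.51% in CR-night-2h. Ccl2, Il1b and Ccl6, which were lower in every CR condition at 19 months, had log2 fold changes at 6 months of -0.85 to 0.60, -0.57 to 0.05 and -0.55 to -0.10, none of them called. Cxcl16 had changes of 0.02 to 0.36 at 6 months, below the fold threshold. Single young CR livers were high in the Cxcr3 ligands too, with 63.5 CPM of Cxcl9 in CR-day-12h liver 20B (next 12.7 CPM) and 38.1 CPM in CR-spread liver 04B (next 9.24 CPM).

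**Figure D5:**
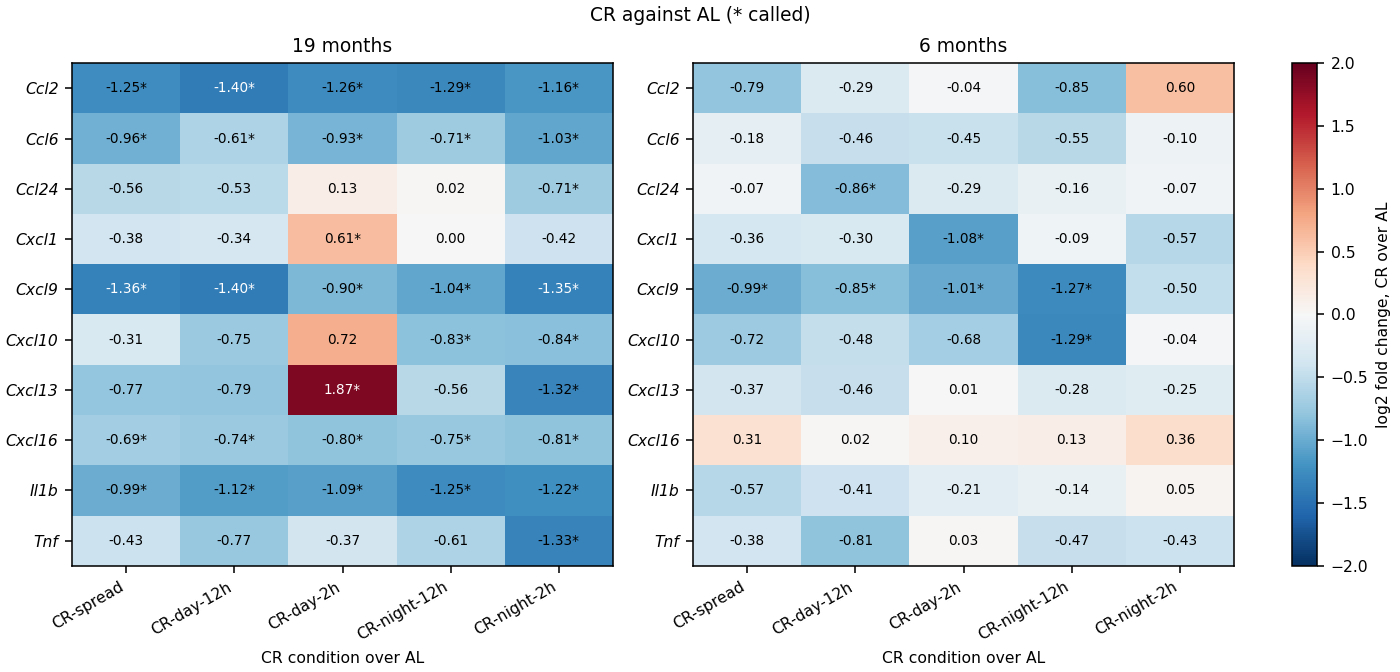
Log2 fold change of each gene in each CR condition over AL at 19 months (left) and 6 months (right). Colour and printed value give the change, from blue (lower in CR) to red (higher in CR), and a star marks a called change. Ccl2, Ccl6, Cxcl9, Cxcl16 and Il1b are blue and starred in all 5 columns at 19 months, and at 6 months the starred values are mostly those of Cxcl9.

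The third question was whether feeding by night or by day mattered under CR. The mean of CR-night-2h and CR-night-12h was compared with the mean of CR-day-2h and CR-day-12h. At 19 months Cxcl13 (-1.48 ± 0.31, adjusted p = 0.000354) and Cxcl10 (-0.82 ± 0.25, adjusted p = 0.0252) were lower in night-fed than in day-fed livers, and 1.66% of all genes tested were called in either direction. Both rested on the high day-fed livers. Without 40A, Cxcl13 was 0.23 (adjusted p = 0.653), and without 12A, Cxcl10 was -0.22 (adjusted p = 0.663). Ccl2, Ccl6, Cxcl9, Cxcl16 and Il1b had night over day changes of 0.10 ± 0.27, -0.10 ± 0.13, -0.05 ± 0.19, -0.01 ± 0.08 and -0.13 ± 0.17. For Cxcl16 this interval is narrow, from -0.17 to 0.15 at 95%. At 6 months 0 of the 10 genes were called by edgeR, DESeq2 or limma (0.968% of all genes by edgeR), and 1, Cxcl16, had an unadjusted p under 0.05, with a change of 0.18 ± 0.09. For the difference of the night over day change between ages, 0 were called by any of the 3 tools (0.209% of all genes by edgeR) and 2, Cxcl1 and Cxcl13, had an unadjusted p under 0.05.

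The libraries were sampled around the clock, and a 24-h rhythm was tested in each group by a cosine and a sine term. Rhythms were called for 14 of 120 pairs of gene and group, 11.7%, beside 24.1% of all genes and groups. In 1 joint fit over the 12 groups 13 pairs were called, and 6 of them were among the 14. Of the 14 pairs, 4 were called in replicate A alone and 3 in replicate B alone. The share of all genes was 29.9% in AL at 19 months and 31.7% at 6 months, 11.5% and 16.3% in CR-spread, 18% and 36.6% in CR-day-12h, 16.5% and 23.1% in CR-day-2h, 23% and 32.7% in CR-night-12h, and 25.9% and 24.5% in CR-night-2h, with 19 months given first in each pair. The difference between these shares was not tested. For Ccl2 a rhythm was called in AL at both ages, with a peak at hour 2.82 and a peak over trough fold of 3.02 at 19 months (adjusted p = 0.0171) and a peak at hour 1.75 and a fold of 5.83 at 6 months (adjusted p = 0.00438). For Cxcl13 it was called in AL at 6 months (3.46-fold, peak at hour 1.62) and in CR-night-12h at 19 months (4.18-fold, peak at hour 23.0). In CR-day-2h at 19 months the rhythms called for Cxcl13 (111-fold) and Cxcl10 (11.4-fold) were lost without the livers that stood apart, 40A and 12A among them (adjusted p = 0.569 and 0.617). Young CR-night-12h livers had the most rhythms, in Ccl24, Cxcl1, Cxcl10 and Il1b, with folds of 2.08 to 4.06. Cxcl16 and Tnf had a rhythm called in 0 of 12 groups, with 1 and 0 groups at an unadjusted p under 0.05.

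Other genes of the pathways were counted over whole lists, chosen as the 10 genes were. In AL livers at 19 months against 6 months, 8 of 14 other chemokines tested were called higher (13.2% of all genes), with the smallest p for Ccl3 (2.90 ± 0.41), Ccl5 (2.10 ± 0.31), the platelet chemokine Ppbp (1.80 ± 0.29) and Cxcl14 (1.07 ± 0.18). Of 17 chemokine receptors 12 were higher, among them Cxcr4 (2.28 ± 0.30), the Ccl2 receptor Ccr2 (1.70 ± 0.23), Cx3cr1 (2.23 ± 0.33) and Ccr1 (2.17 ± 0.34). The Cxcl16 receptor Cxcr6, named here after its value was seen, was not called (0.19 ± 0.29). In the IL-1 and TNF pathway 6 of 17 genes were higher, led by the receptor antagonist Il1rn (2.54 ± 0.25) and Il18bp, which binds interleukin 18 (0.71 ± 0.13). The pore-forming Gsdmd (-0.49 ± 0.09) and the receptor subunit Il1rap (-0.52 ± 0.10) passed the p threshold with a fold below 1.5. NF-kB feedback and adhesion targets had 5 of 12 higher, with Tnfaip3 (1.49 ± 0.17), Vcam1 (1.39 ± 0.18), Icam1 (1.02 ± 0.14) and Relb (1.30 ± 0.24). Of the interferon gamma response regulators 4 of 9 were higher, Ifngr2 (0.82 ± 0.13), Gbp2 (1.06 ± 0.20) and Cd274 (1.24 ± 0.24) with the smallest p besides Ifngr1 (0.48 ± 0.09, below the fold), and of other cytokines 2 of 7, Tnfsf13b (0.74 ± 0.22) and Ltb (0.76 ± 0.29), while Tgfb1 (0.55 ± 0.11) and Csf1 (0.31 ± 0.11) were below the fold. In CR-night-2h, the condition with 1 of the 10 genes called, the age effect was called higher for 2 of the 14 other chemokines, 1 of the 17 receptors and 1 of the 17 IL-1 and TNF pathway genes, beside 2.69% of all genes, and 1 pathway gene was lower. It was called by edgeR for 0 of 12 NF-kB targets (1 higher and 3 lower at an unadjusted p under 0.05), 0 of 9 interferon gamma genes (0 at an unadjusted p under 0.05) and 0 of 7 other cytokines (2, both lower, at an unadjusted p under 0.05). Against AL at 19 months, CR-night-2h livers had 5 of 14 other chemokines, 6 of 17 receptors, 6 of 17 pathway genes, 5 of 12 NF-kB targets, 4 of 9 interferon gamma genes and 1 of 7 other cytokines called lower, beside 8.97% of all genes. In the same comparison 1 receptor and 1 pathway gene were called higher, beside 4.22% of all genes.

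Markers of macrophages and of several other cell types, but not of all, moved with these transcripts. All 6 macrophage markers were called higher in AL with age, and their summed level was 160, 314 and 586 CPM (lowest, median, highest) at 19 months, against 94.9, 153 and 208 CPM at 6 months. Recruited monocyte and lipid-associated macrophage markers summed to medians of 134 CPM in old AL livers and 55.8 CPM in young ones, and the 8 symbols, with 9 identifiers because Itgam has 2, were all called higher. Of 7 Kupffer cell markers 3 were higher and 1 lower, the scavenger receptor Cd163 (-1.92 ± 0.27, singled out after its value was seen), with summed medians of 168 and 123 CPM. In old CR livers the macrophage sum had medians of 94.6 to 134 CPM, against 314 CPM in old AL livers. Neutrophil markers were scarce, with summed medians of 6.32 CPM in old and 3.13 CPM in young AL livers, and the defining Ly6g had a median of 0 in every group. Summed medians in old and young AL livers were 386 and 230 CPM for stellate cells, 76.2 and 42.5 CPM for cholangiocytes, 8.85 and 4.60 CPM for B and plasma cells, 6.27 and 5.33 CPM for T cells and 4.10 and 2.36 CPM for NK cells. Of these lists 3 of 6, 2 of 5, 4 of 6, 4 of 6 and 3 of 5 markers were called higher with age in AL, and 1 T cell marker lower. Spp1 is in both the cholangiocyte and the recruited macrophage list, so these 2 sums are not independent of each other. Sinusoidal endothelial markers had a summed median of 150 CPM in both old and young AL livers, with 1 of 5 called higher. Dendritic cell markers had 11.3 and 9.87 CPM (3 of 6 higher), and red blood cell markers 150 and 129 CPM (2 of 4 higher, 1 lower). The hepatocyte markers summed to a median of 79057 CPM in old AL livers and 86417 CPM in young ones, and to 111400 to 130920 CPM in old CR livers. The part of these cell types in the chemokine levels was not tested.

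Between livers of the same group, with group means removed, the genes varied together to different degrees. Over 288 livers the Pearson correlations of log2 CPM were 0.61 for Cxcl9 with Cxcl10, 0.55 for Ccl2 with Cxcl10 and 0.54 for Ccl2 with Cxcl16, and the median over the 45 pairs of genes was 0.25. Ccl6 followed the Kupffer cell and macrophage marker sums alike (0.73 each). Ccl2 followed the macrophage sum (0.63), and also those of recruited macrophages (0.52) and neutrophils (0.45), with -0.47 for hepatocytes. Cxcl9 followed the T cell (0.67), macrophage (0.61) and NK cell (0.57) sums, so no single cell type was marked out. These are descriptions, since all values of a liver share its depth and mix of cells.

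Over the 12 group means, the genes whose pattern was most like that of Ccl2 were Capg and Cd44 (r of 0.98 each). For Ccl6 they were Ly86, Clec12a and C3ar1 (0.98 each), for Il1b Cd52, Lair1 and Tpx2 (0.98 each), for Cxcl9 Ncf1, Casp1 and Samhd1 (0.98 each) and for Cxcl10 Dtx3l, Ifi213 and Ifi203 (0.96 to 0.98). Cxcl16 was nearest to Osmr, Msn and Lmo2 (0.95 to 0.97) and Tnf to Selplg, Msra and Sash3 (0.91 to 0.95). The profiles of Cxcl1 (Zfp933, Mphosph8 and Arid4a, 0.93 to 0.97), Cxcl13 (Lipt1, Arl2bp and Exosc9, 0.90 to 0.92) and Ccl24 (Gpr153, Trib1 and Eif4e3, 0.85 to 0.90) had other neighbours. With 12 points and at least 11701 genes compared, high values are found for many genes.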

How the data were processed

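PolyA-selected RNA of 288 mouse livers was sequenced by the authors with TruSeq libraries, and the submitters' processing notes name FastQC, cutadapt, STAR and featureCounts all without versions, and no source used here gives the genome build. The values used are the read counts per gene that the authors deposited, raw and not normalized, in a table for each of 12 groups. Library totals ran from 2796688 to 18706281 reads, and no 2 libraries were identical. Genes with a mean of at least 1 count per library (13843 of 21869) were tested in R 4.3.3 with edgeR 4.0.16 (TMM scaling, quasi-likelihood F test), in 1 model with a mean for each of 12 groups and 24 contrasts. P-values were adjusted over all genes tested (Benjamini-Hochberg), and a call needed an adjusted p under 0.05 and a fold of at least 1.5. SEs were derived from the fold and its F statistic. Rhythms were tested per group with a cosine and a sine of 24 h. The same animal was never sampled again, and p-values measure the spread between mice. DESeq2 1.42.0 and limma 3.58.1 served as alternatives, beside other scaling, filters, subsets of livers, thinned counts and a replicate block. The scripts were tested on simulated data.

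All 10 genes are named whatever their values. Of each list of related genes the text gives the counts and up to 4 genes with the smallest p for age in AL, and for each of the 10 genes the 3 genes (mean of at least 1 CPM) whose 12 group means correlate most with it, of which 1 is not reported here. The genes and lists were chosen with earlier results of these data known. Coordinates were taken from GENCODE M21 and promoters from RefSeq (GRCm38.p6). Columns of the authors' own tests were not used. Figures were drawn with Python 3.11.15 and matplotlib 3.10.9.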

Additional observations from a re-analysis of the deposited data

Results flagged for a closer look

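The difference between the age effect in a CR condition and that in AL was tested as an interaction, and 14 such differences were called (log2, 19 over 6 months in CR minus the same in AL, edgeR). Cxcl16 rose less than in AL in every CR condition, by -1.0 in CR-spread, -0.77 in CR-day-12h, -0.91 in CR-day-2h, -0.89 in CR-night-12h and -1.16 in CR-night-2h. In replicate A livers alone the Cxcl16 calls in CR-day-12h, CR-day-2h and CR-night-12h were lost. For Il1b the difference was -0.88 in CR-day-2h, -1.11 in CR-night-12h and -1.28 in CR-night-2h. For Ccl6 it was -0.78 in CR-spread and -0.94 in CR-night-2h, and for Ccl2 -1.76 in CR-night-2h. The calls of Il1b in CR-day-2h and of Ccl6 in CR-night-2h were lost in either replicate letter alone. A larger rise than in AL was called for Cxcl1 (1.69), Cxcl10 (1.40) and Cxcl13 (1.86), all in CR-day-2h. Without liver 12A the value of Cxcl10 was 0.19 and no longer called, and without liver 40A that of Cxcl13 was -1.57. Cxcl1 stayed called at 1.05 without liver 00B.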

How the results depend on the processing

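Of the 83 called pairs of gene and comparison, 21 were called in the same direction under every alternative they were computed for, of 23 alternatives (14 planned and 9 chosen after the values were seen). Over the 1905 pairs of call and alternative, 1669 kept the call, 199 lost it and 37 reversed. Counts of calls beyond 1.5 times the reported one were these. For age in AL (8 reported) there were 4 to 7 in a single replicate letter and 5 in hours 0 to 20. For age under CR (20) there were 5 to 16 in a single letter, 12 in hours 0 to 20 and 13 in hours 24 to 44. For CR against AL at 19 months (2 higher and 30 lower) there were 20 in hours 24 to 44, and 5 higher and 17 lower in replicate A alone. At 6 months (7, all lower) there were 3 in hours 0 to 20 and 1 to 5 in a single letter, where the 5 in replicate A were among the 7 and the 1 in replicate B was a different pair of gene and condition, called higher. For age by feeding (14) there were 8 to 11 in a single letter, 6 in hours 0 to 20 and 9 in hours 24 to 44. The cause of these changes was not tested. A single letter left 12 livers per group, and the letters differed in depth in some groups. Median totals in replicates A and B were 1.11e+07 and 7.96e+06 in old AL livers and 7.76e+06 and 1.59e+07 in young ones. For night against day (2) there was 1 call under DESeq2, with the groups of the comparison alone, in hours 24 to 44, with thinned counts, without 40A and without 12A, and there were 0 to 2 in a single letter and 0 with added cosine and sine terms, in hours 0 to 20, with limma, without the 3 CR-day-2h livers and without every liver that stood apart. For rhythms (14) there were 4 in either letter alone and 8 with thinned counts. A joint fit over the 12 groups called 13 rhythms, but only 6 of them were among the 14.

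Reversals concerned Cxcl13, Cxcl10 and Cxcl1. Cxcl13 in CR-day-2h with age, against AL at 19 months, as interaction and in night against day was -0.15, -1.65, -1.65 and 0.23 under DESeq2, -0.12 to 4.29, -2.33 to 5.39, -2.22 to 5.15 and -2.07 to 0.29 without replicate A or B, -0.10, -1.29, -1.04 and 0.18 in hours 0 to 20, -0.16, -1.57, -1.57 and 0.23 without 40A, -0.17, -1.59, -1.59 and 0.24 without 40A, 12A and 00B, and -0.12, -1.54, -1.54 and 0.22 without every liver that stood apart. Cxcl13 with age in AL was -0.86 to 2.10 without a letter and -0.082 without AL livers 28B and 20B, and in CR-night-2h against AL -2.24 to 1.29 and 0.17. The Cxcl10 interaction in CR-day-2h was -0.58 to 2.21 without a letter, -0.086 without the 3 livers and -0.10 without every liver that stood apart, and its night over day change -1.63 to 0.22 without a letter. Cxcl1 in CR-day-2h against AL was -0.32 to 1.26 without a letter, -0.43 in hours 24 to 44, -0.13 with limma, -0.03 without 00B and -0.056 without the 3 livers.

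Same-numbered mice did not pair between groups beyond their shared hour. The median correlation of deviations was 0.083 at the same time and letter (45.1% of pairs over 0.1). At the same time with the other letter it was 0.076 (43.6%). At other times it was -0.009 with the same letter (22.1%) and -0.013 with the other (20.7%). Livers of the same hour thus deviated together to a small degree, and the main model held no term for the hour. With a replicate block of time point and letter the counts were 8, 22, 31, 8, 12 and 0 in the order above, and 17 rhythms with the letter as block.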
